A study of Mus musculus with 16 samples.

Results

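The extracellular matrix genes described here are the collagen chains, laminin chains, fibulins, fibrillins, matrix metalloproteinases, their Timp inhibitors, thrombospondins and lysyl oxidases, chosen by gene symbol, with Eln, Fn1, Nid1, Nid2, Sparc and Hspg2 added by name. The platform named 59 such genes, on 83 of its 20205 probes. Of these, 48 genes on 64 probes had enough values to be tested, among 8005 named genes and 15715 probes tested in all. The kidneys came from 5 wild-type male littermates, W1 to W5, of a mixed C57BL/6 and 129Sv background, aged 88 ± 2 days. RNA of the right kidney of W1, W2, W3 or W4 was hybridised on two-colour arrays against RNA of the right kidney of W5, 4 arrays per mouse and 16 in all, with W5 in channel 2 on 8 arrays and in channel 1 on the other 8. The study measured how much transcript levels vary between normal animals. The labels name no treatment. Each kidney was that of 1 animal, and W5 was the common partner of every array.

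Each value is a log2 ratio of a kidney to W5, so W5 lies at 0 throughout. Which channel is the numerator is not given in the sources used here, so it is not settled which kidney had more of a transcript. Positive values mark the side of W5 on which Fbln5 lay in all 4 mice, and negative values the other side. The word range stands for the span from the lowest to the highest of the 5 kidneys. The labels name 1 kidney per mouse and no separate extracts, so the arrays of a mouse were taken as repeat hybridisations. The tests concern these extracts and no wider population of mice, and the 4 comparisons with W5 share that animal. Whole kidneys were used, so fewer cells of a type and less RNA per cell cannot be told apart. An array gave values for 80.2% to 91.1% of the probes, and W4.3, array 3 of W4, gave the fewest. The ratios hold no level, so kidney markers show only relative differences here.

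The extracellular matrix gives the kidney its shape and its filter. Fibrillar collagens such as types I and III form the fibres of the interstitium, and collagen VI, fibronectin and small glycoproteins link these fibres to cells. The basement membranes under tubules and glomerular capillaries are sheets of collagen IV and laminin, joined by nidogen and perlecan. Elastic fibres, built on fibrillins and fibulins and crosslinked by lysyl oxidases, lie mainly in the walls of vessels. Metalloproteinases cut matrix proteins, and Timp proteins inhibit them. Much of the interstitial matrix is made by fibroblasts and other mesenchymal cells.

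Promoters are shown for 4 called genes of different roles, chosen after their values were seen: Fbln5 for elastic fibres, Sparc for the glycoproteins, Col1a2 for the interstitial collagens, and Col27a1, in which W1 stood apart. They are shown as a description, and no link between the windows and the ratios was tested. RefSeq's table for GRCm38.p6 held windows for 8 of the 10 genes with a called probe. Each sequence below is the 250 bases before an annotated start, 5′ to 3′ on the strand of the gene. They are Fbln5 at chr12:101819120-101819369 on the minus strand (the first of its listed starts), Sparc at chr11:55420081-55420330 on the minus strand, Col1a2 at chr6:4505368-4505617 on the plus strand and Col27a1 at chr4:63215162-63215411 on the plus strand. Capitals mark matches, on either strand, to CCAAT (the CCAAT box), GGGCGG (the GC box), TGANTCA (the AP-1 site), TATAAA (the TATA box) or CAGAC (a Smad-binding sequence), and no matches overlap.
Fbln5: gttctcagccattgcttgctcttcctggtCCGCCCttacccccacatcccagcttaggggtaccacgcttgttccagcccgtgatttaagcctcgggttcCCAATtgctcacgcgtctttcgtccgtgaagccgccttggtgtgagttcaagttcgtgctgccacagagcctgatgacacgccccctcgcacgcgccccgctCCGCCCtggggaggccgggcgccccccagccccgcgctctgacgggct
Sparc: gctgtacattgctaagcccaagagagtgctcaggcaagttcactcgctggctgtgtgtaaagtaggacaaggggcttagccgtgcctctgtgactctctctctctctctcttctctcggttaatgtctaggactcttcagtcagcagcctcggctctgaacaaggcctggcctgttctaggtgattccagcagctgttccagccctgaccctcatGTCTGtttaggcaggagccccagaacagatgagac
Col1a2: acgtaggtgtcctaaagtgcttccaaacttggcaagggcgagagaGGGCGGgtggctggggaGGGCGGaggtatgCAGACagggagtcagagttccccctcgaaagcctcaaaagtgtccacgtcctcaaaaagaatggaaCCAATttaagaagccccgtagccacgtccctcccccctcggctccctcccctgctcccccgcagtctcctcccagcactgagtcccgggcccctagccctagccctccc
Col27a1: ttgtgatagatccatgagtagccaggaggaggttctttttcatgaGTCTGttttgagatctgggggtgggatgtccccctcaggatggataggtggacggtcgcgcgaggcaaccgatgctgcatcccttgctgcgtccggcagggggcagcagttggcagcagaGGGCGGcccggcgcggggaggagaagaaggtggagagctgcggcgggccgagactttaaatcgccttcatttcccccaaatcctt

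The Fbln5 window holds a CCAAT match 150 bases before the start and GGGCGG matches 221 and 48 bases before it. In Sparc the only match is CAGAC, 35 bases before the start. Col1a2 has CCAAT at 109 bases, GGGCGG at 205 and 188 bases and CAGAC at 175 bases, while Col27a1 has GGGCGG at 85 bases and CAGAC at 205 bases. Over the 9 windows of genes with a called probe, 77.8% held CAGAC, 55.6% GGGCGG, 33.3% CCAAT, 11.1% TATAAA and 0% TGANTCA. Fbln5 counts there with 2 windows, and its CAGAC matches lie only in the second, which is not shown. The shares over all 32851 windows of the table were 42.2%, 32.7%, 33.8%, 12.4% and 6.75%. Over the 34 windows of tested matrix genes they were 58.8%, 50%, 32.4%, 11.8% and 5.88%. A match of such short letters is a description of the window only.

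Among the 5 kidneys, 12 of the 64 matrix probes were called (18.8%), against 4% of all 15715 probes (limma F test over the 4 coefficients, adjusted p under 0.05). They belong to 10 genes: Fbln5, Sparc, Fn1, Timp2 and the collagen genes Col1a2, Col3a1, Col6a3, Col6a6, Col14a1 and Col27a1. With 1 probe per gene, 7 of 48 genes were called (14.6%), against 4.2% of named genes. The members were chosen with earlier results of these data known, so these shares are descriptions. At an unadjusted p under 0.05 the counts were 30 of 64 probes (46.9%) and 17.9% of all probes. Without mouse W1 the 12 fell to 7. The median technical SD was 0.201 for the matrix probes and 0.195 for all probes. Their median range was 0.32 against 0.24, and 8 of them (12.5%) ranged over more than 1.5-fold, against 3.80% of all probes.

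Most called probes lay on the positive side, with W3 nearest to W5. W1 and W4 were positive in all 12, W2 in 10 and W3 in 9. In 7 of the 12 (58.3%) all 4 mice were positive, against 26.9% of all called probes. In 0 of the 12 were all 4 negative, against 24.6% of all called probes. Of all tested probes, called or not, 10.9% of the matrix probes and 1.08% of all probes were called and positive in all 4 mice. Called and negative in all 4 mice were 0% and 0.986%. Fbln5 is among the 7 by definition, because it sets the positive side. W3 was the mouse nearest to W5 in 11 of the 12 and the farthest in 0, while W1, W2 and W4 were each farthest in 4. Among all 629 called probes, W3 was nearest in 195 and W1 in 208. W1, W2 and W4 thus lay together on the positive side in 10 of the 12, the exceptions being Col27a1 and Col6a6.

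**Figure D1:**
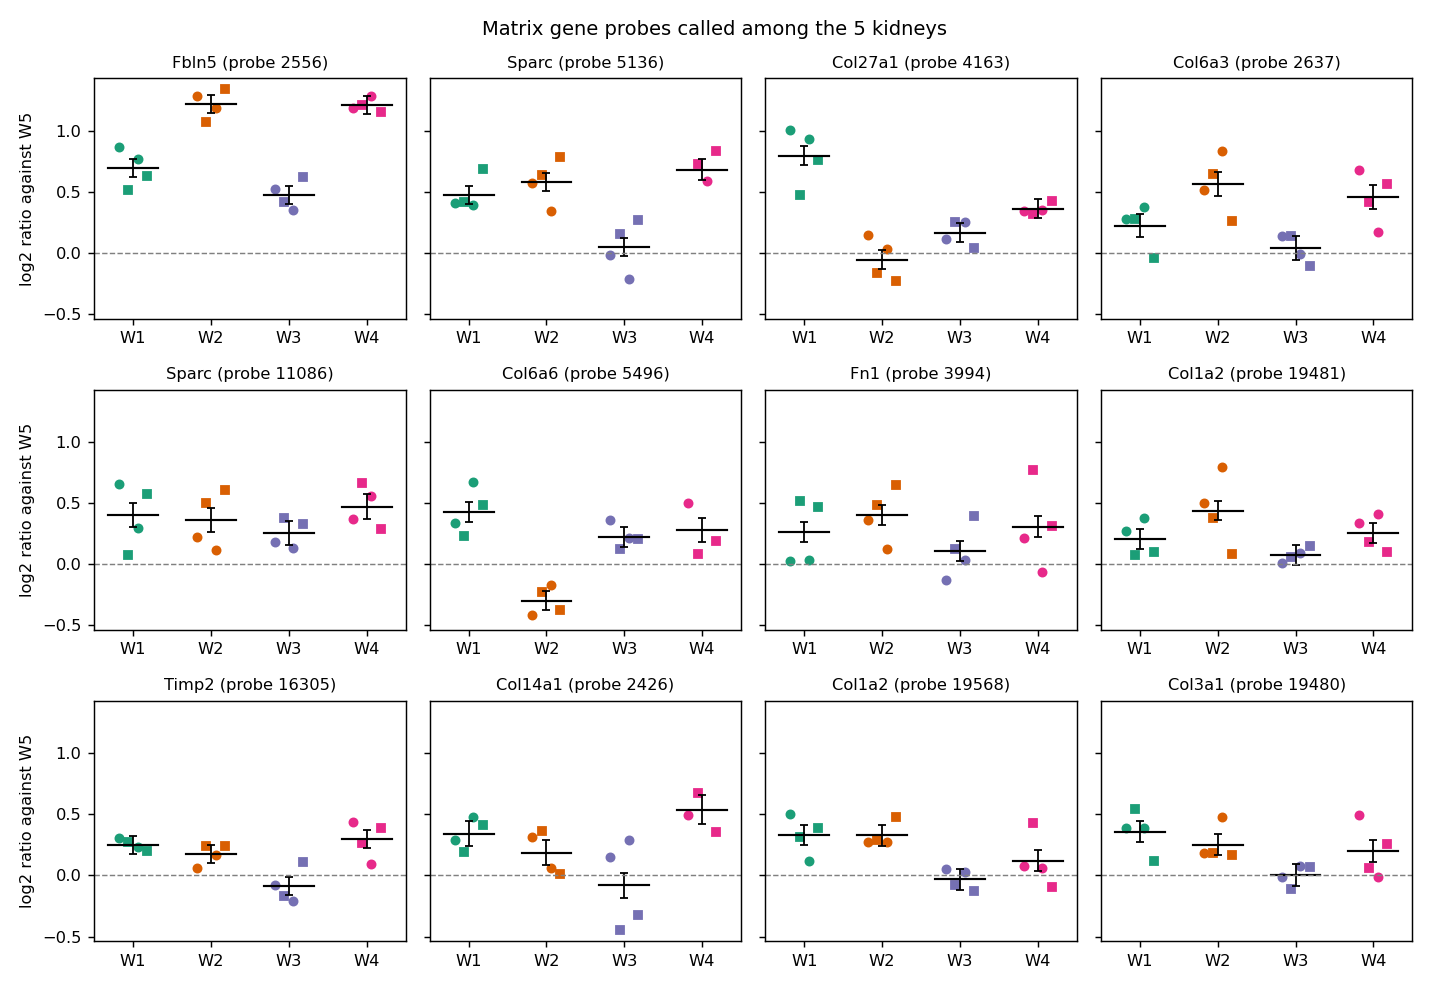
Log2 ratio against W5 (vertical axis) on each array of W1 to W4 for the 12 called matrix probes; circles are arrays with W5 in channel 2, squares arrays with W5 in channel 1, bars the fitted value and whiskers its standard error. W3 lies nearest to the dashed line at W5 in 11 of the 12 panels, and Fbln5 lies above it on all 16 arrays.

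Fbln5 encodes fibulin-5, a secreted protein that binds integrins and is needed to assemble elastic fibres. Its ratios were 0.87, 0.52, 0.77 and 0.63 on the arrays of W1, and 1.28, 1.07, 1.18 and 1.34 on those of W2. They were 0.52, 0.42, 0.35 and 0.62 in W3, with 1.18, 1.21, 1.28 and 1.15 in W4. The arrays of W2 and W4 all lay above those of W1 and W3, and the arrays of W1 and W3 overlapped. Fitted values were 0.70, 1.22, 0.48 and 1.21 in W1 to W4 (SE 0.074, n = 4 arrays per mouse), a range of 2.32-fold, with limma adjusted p = 2.89e-10. It was the only matrix probe over 2-fold and the only one called against W5 in each of the 4 mice.

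Fbln5 also separated the mice from each other (limma adjusted p = 0.000872 among W1 to W4). W3 minus W2 was -0.74 and W4 minus W3 was 0.73 (adjusted p = 0.00225 and 0.00441). W2 minus W1 and W4 minus W1, 0.52 and 0.51, missed the threshold (0.0527 and 0.0502), and W4 minus W2 was -0.01 (0.984). The call among W1 to W4 was lost without mouse W3 and with a common scale for all arrays. With the 4 mice as replicates, their mean lay 0.90 ± 0.37 (SD, n = 4 mice) from W5 (limma adjusted p = 0.0116), positive in 4 of 4. That call was lost without mouse W2 and with a spread added for W5, a single animal whose own spread is otherwise left out. Before the sign was turned, the ratio of Fbln5 had one sign on the 8 arrays with W5 in channel 1 and the opposite sign on the other 8.

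The other fibulins and the fibrillin did not pass the test. Fbln7, Fbln1 and Fbln2 had ranges of 0.27, 0.30 and 0.20 (limma adjusted p = 0.342, 0.271 and 0.674), and the probes of Fbn2, a fibrillin of microfibrils, ranged over 0.05 and 0.20. At an unadjusted p under 0.05, 1 of these 5 probes passed, where 17.9% of all probes did. Elastin itself, Eln, had values on 0 of the 16 arrays and was not tested. The lysyl oxidase family, which crosslinks elastin and collagen, had 0 of 4 probes called by limma, where 4% of all probes were called. At an unadjusted p under 0.05, 1 of the 4 passed, against 17.9% of all probes. With so few probes, these counts are near the background shares. Loxl1, the member tied to elastic fibres, just missed with 0.28, 0.27, 0.09 and 0.46 in W1 to W4 (adjusted p = 0.0540) and passed in 7 of 29 alternative settings. Its arrays spread widely, from -0.03 to 0.68 within W4 alone. Both Lox probes and Loxl3 lay farther from the threshold (adjusted p = 0.464, 0.723 and 0.619).

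Sparc, a secreted glycoprotein that binds collagen and calcium, had 3 tested probes. On probe 5136 the arrays of W1 read 0.41, 0.42, 0.40 and 0.68, those of W2 0.57, 0.64, 0.34 and 0.78, those of W3 -0.01, 0.16, -0.21 and 0.27, and the 3 arrays of W4 with a value 0.73, 0.59 and 0.83. All arrays of W1, W2 and W4 lay above all arrays of W3. The fitted values were 0.48, 0.58, 0.05 and 0.68 (SE 0.073 in W1 and 0.086 in W4), with limma adjusted p = 8.76e-06 over the 5 kidneys and 0.0215 among W1 to W4. The call among W1 to W4 was lost in 9 of 27 settings, among them without W3.1, W3.2, W3.3 or W4.3. Probe 11086 gave 0.40, 0.36, 0.26 and 0.47 (SE 0.099), with adjusted p = 0.00217, so here W3 lay with the other mice. Its mean over mice, 0.37 ± 0.09 (SD, n = 4 mice), was called against W5 (limma adjusted p = 0.0239, positive in 4 of 4), a call that was lost without W1.4, without mouse W1, W2 or W4, and with a spread added for W5. Probe 8470 missed with 0.17, 0.11, -0.02 and 0.38 (limma adjusted p = 0.0615). Like probe 11086 it had values on all 16 arrays, and it stands for the gene in counts by gene because its identifier comes first.

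Fn1 encodes fibronectin, the glycoprotein that connects collagen fibres to integrins. Its called probe, 3994, gave 0.03, 0.52, 0.04 and 0.47 on the arrays of W1, 0.36, 0.48, 0.12 and 0.64 on those of W2, -0.13, 0.12, 0.03 and 0.39 in W3, with 0.21, 0.77, -0.06 and 0.31 in W4. In each mouse both arrays with W5 in channel 1 read above both arrays with W5 in channel 2. This probe had a dye term of -0.19 (limma adjusted p = 0.00930), and the dye term was called for 9 of the 64 matrix probes (14.1%), against 12.5% of all probes. With that term in the fit the values were 0.26, 0.40, 0.11 and 0.31 (SE 0.084, limma adjusted p = 0.00543). The call was lost without the dye term and also without mouse W2. The other Fn1 probe gave 0.03, 0.37, 0.02 and 0.08 (adjusted p = 0.357).

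Thrombospondins, secreted proteins that bind matrix and growth factors, were not called in the 5-kidney test. Thbs2 came nearest on 1 of its probes, with 0.29, 0.17, 0.04 and 0.44 (limma adjusted p = 0.0591), while its other probe ranged over 0.16 (adjusted p = 0.949). Thbs3 and Thbs4 ranged over 0.32 and 0.26 (adjusted p = 0.339 and 0.794).

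Of 7 fibrillar collagen probes 4 were called, where 4% of all probes were, and 2 of the 4 measure the same gene, Col1a2. With 1 probe per gene the family had 2 called genes of 5, Col27a1 and Col3a1. Col27a1, a fibrillar collagen best known from cartilage, had the second widest range of the called matrix genes, 0.85. On single arrays W1 read 1.00, 0.48, 0.93 and 0.76, W2 read 0.14, -0.17, 0.03 and -0.23, W3 read 0.12, 0.26, 0.25 and 0.04, and W4 read 0.34, 0.32, 0.35 and 0.42. W1 lay above every array of the other 3 mice, W2 straddled W5, and the arrays of W4 lay above those of W2 and W3. Fitted values were 0.79, -0.05, 0.17 and 0.36 (SE 0.078), with limma adjusted p = 2.30e-05 over the 5 kidneys and 0.00214 among W1 to W4. W2 minus W1 was -0.85 and W3 minus W1 was -0.63 (adjusted p = 0.00118 and 0.0208), and the call among W1 to W4 was lost without mouse W1 or W2. Without mouse W1 the 5-kidney call was lost (adjusted p = 0.0563).

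Col1a2 and Col3a1 encode chains of collagens I and III, the main fibre collagens of the interstitium. Col1a2 probe 19481 read 0.27, 0.08, 0.37 and 0.10 in W1, 0.50, 0.37, 0.79 and 0.08 on the arrays of W2, 0.01, 0.06, 0.09 and 0.15 in W3, with 0.33, 0.18, 0.41 and 0.10 in W4. All 16 arrays were positive, and the mice overlapped. The fitted values were 0.20, 0.44, 0.08 and 0.25 (SE 0.080, limma adjusted p = 0.00569), a call lost without mouse W2. Probe 19568 gave 0.33, 0.33, -0.03 and 0.12 (adjusted p = 0.0268), and probe 18403 gave 0.24, 0.06, 0.02 and 0.20 (adjusted p = 0.210). W1 was positive on every array of all 3 probes, but the probes placed W2 differently, and 19568 lost its call in 9 of 28 settings, among them without any 1 array of W2 and without W1.1, W1.2 or W1.4.

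Col3a1 read 0.38, 0.54, 0.39 and 0.11 in W1, 0.18, 0.18, 0.47 and 0.17 on the arrays of W2, -0.02, -0.11, 0.08 and 0.07 in W3, with 0.50, 0.06, -0.01 and 0.26 in W4. The arrays of W1 and W2 lay above those of W3, and W4 overlapped with all. Its fitted values, 0.36, 0.25, 0.00 and 0.20 (SE 0.088, limma adjusted p = 0.0342), stood close to the threshold, and the call was lost in 15 of 29 settings, among them without any 1 array of W2 and without W1.1, W1.2, W1.3, W3.1, W3.2, W4.4 or the dye term. Col1a1, the partner chain of Col1a2, was positive in all 4 mice at 0.16, 0.22, 0.17 and 0.01 but was not called (adjusted p = 0.158). Col2a1, the collagen of cartilage, ranged over 0.17 (adjusted p = 0.847).

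Collagen VI forms beaded filaments around cells, and its chains did not move alike. Col6a3 read 0.28, 0.28, 0.38 and -0.04 in W1, 0.52, 0.64, 0.84 and 0.26 on the arrays of W2, 0.14, 0.14, -0.01 and -0.10 in W3, with 0.68, 0.42, 0.17 and 0.56 in W4. W2 and W4 lay above W3 on every array, and W1 overlapped with all of them. Fitted values were 0.22, 0.56, 0.04 and 0.46 (SE 0.097, limma adjusted p = 0.00170), and W2 and W4 were each called against W5 (adjusted p = 0.00327 and 0.0183), the second not without W4.1 or W4.4.

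Col6a6, a chain that can stand in for the alpha 3 chain, was the called gene in which W2 lay farthest on the negative side. Its arrays read 0.33, 0.23, 0.67 and 0.49 in W1, -0.41, -0.23, -0.17 and -0.38 on the arrays of W2, 0.36, 0.12, 0.21 and 0.20 in W3, and 0.50, 0.08 and 0.19 on the 3 arrays of W4 with a value. All 4 arrays of W2 lay on the side of W5 opposite to every array of the other mice. Fitted values were 0.43, -0.30, 0.22 and 0.28 (SE 0.081 in W1), with limma adjusted p = 0.00287 over the 5 kidneys and 0.0129 among W1 to W4, and W2 minus W1 was -0.73 (0.0092). The call among W1 to W4 was lost without W2.1, without W2.4 and without mouse W1 or W2. Col6a1 was nearly level over the mice at 0.19, 0.27, 0.22 and 0.21, a mean of 0.23 ± 0.03 (SD, n = 4 mice) that was not called against W5 (limma adjusted p = 0.0863). Col6a5 ranged over 0.36 with a wide spread between arrays (adjusted p = 0.817).

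Col14a1, a fibril-associated collagen of interstitial fibres, read 0.29, 0.19, 0.48 and 0.41 in W1, 0.31, 0.36, 0.06 and 0.01 on the arrays of W2, 0.15, -0.45, 0.29 and -0.32 in W3, and 0.49, 0.67 and 0.36 on 3 arrays of W4. W1, W2 and W4 were positive on every array, and W3 was positive on both arrays with W5 in channel 2 and negative on the other 2. Fitted values were 0.34, 0.19, -0.08 and 0.54 (SE 0.102 in W1, limma adjusted p = 0.0209), a call lost in 6 of 28 settings, among them without W1.3, W1.4 or W4.2. The other fibril-associated collagens, Col12a1, Col16a1 and Col22a1, were not called, although Col22a1 ranged over 0.61 (adjusted p = 0.410). Both probes of Col8a1, a short-chain network collagen of vessel walls, came close with 0.40, 0.04, 0.05 and 0.26 on one and 0.34, 0.04, 0.14 and 0.30 on the other (adjusted p = 0.0846 and 0.0953). They placed W1 and W4 above W2 and W3 alike.

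**Figure D2:**
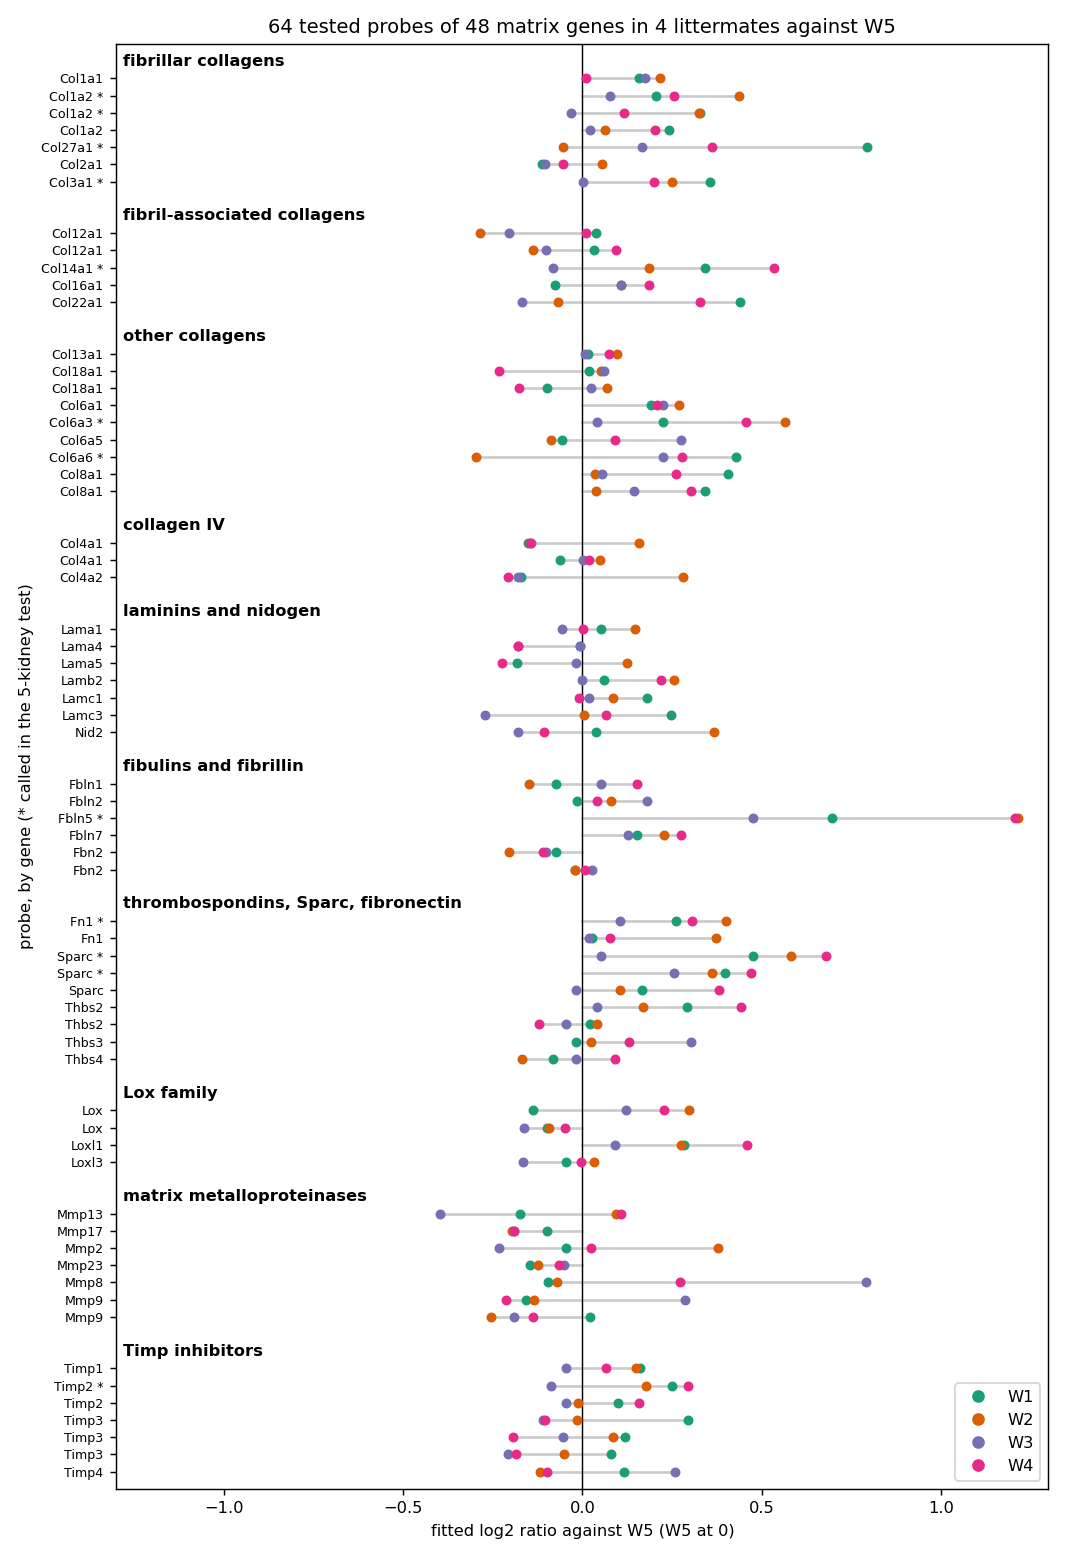
Fitted log2 ratio against W5 (horizontal axis) of W1 to W4, 1 point per mouse, for all 64 tested matrix probes grouped by family; grey lines span the 5 kidneys with W5 at 0, and asterisks mark the 12 called probes. The called probes sit in the collagen, fibulin, glycoprotein and Timp groups. No collagen IV, laminin, nidogen, Lox family or metalloproteinase row carries an asterisk. With 4% of all tested probes called, that is near the background share in groups so small.

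The basement membrane chains were not called, and whether they differ from the interstitial genes was not tested. Of 12 probes of collagen IV, collagen XVIII, laminin and nidogen genes, 0 were called by limma where 4% of all probes were called, and 3 passed at an unadjusted p under 0.05, where 17.9% of all probes did. With so few probes, 0 calls is near the background share. Their median range was 0.27, against 0.24 over all probes tested. Col4a2, a chain of the main collagen IV network, lay at -0.17, 0.28, -0.18 and -0.21 (limma adjusted p = 0.197), with W2 alone on the positive side. Its partner Col4a1 gave -0.15, 0.16, -0.14 and -0.15 on 1 probe (0.402) and ranged over 0.11 on the other (0.946).

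Lama5, Lamb2 and Lamc1 encode laminin chains, and the alpha 5 and beta 2 chains with gamma 1 form the laminin of the mature glomerular basement membrane. Lama5 lay at -0.18, 0.12, -0.02 and -0.23, and Lamb2 at 0.06, 0.26, 0.00 and 0.22 (limma adjusted p = 0.162 and 0.123). Lamc1 ranged over 0.19 (0.577). Nid2, which links laminin to collagen IV, had the widest range of the laminin and nidogen probes, 0.55, but its technical SD was 0.390 and it was not called (0.515). Col18a1, Lama1, Lama4 and Lamc3 were not called either. Nid1 and Hspg2 were not analysed here.

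Metalloproteinases, which cut collagens and other matrix proteins, had a median technical SD of 0.284, against 0.201 over all matrix probes. Of 7 metalloproteinase probes, 0 were called by limma in the 5-kidney test, which is near the 4% of all probes, and 3 passed at an unadjusted p under 0.05, against 17.9% of all probes. Mmp8, the neutrophil collagenase, had the widest range of any matrix probe that was not called, 0.89. It read 1.84, 0.56, 0.18 and 0.59 in W3, against -0.17, -0.13, -0.26 and 0.18 in W1, 0.06, -0.19, -0.27 and 0.12 on the arrays of W2, and 0.11, 0.19, -0.47 and 1.25 in W4. Single arrays of W3 and W4 stood far from the others of the same mouse, and the technical SD was 0.536, against a median of 0.201 over the matrix probes (limma adjusted p = 0.203). Mmp2, gelatinase A, was 0.38 in W2 and -0.23 in W3 (0.282). Mmp9, gelatinase B, came nearest on the negative side with 0.02, -0.25, -0.19 and -0.14 (0.0976), but its other probe put W3 at 0.29 (0.340). Mmp13, Mmp17 and Mmp23 had adjusted p of 0.326, 0.274 and 0.569. Mmp3 had values on 0 arrays and Mmp14 on 10, too few to be tested.

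Timp2, an inhibitor that also takes part in the activation of proMmp2, was the only called inhibitor gene. It read 0.30, 0.27, 0.23 and 0.19 in W1, 0.06, 0.24, 0.17 and 0.24 on the arrays of W2, -0.08, -0.17, -0.21 and 0.11 in W3, with 0.44, 0.27, 0.10 and 0.38 in W4. W1, W2 and W4 were positive on every array and W3 on 1 of 4. Fitted values were 0.25, 0.18, -0.09 and 0.30 (SE 0.073, limma adjusted p = 0.0183), but the call was lost without W1.1 and without mouse W1, W2 or W4, and its second probe ranged over 0.20 (adjusted p = 0.661). Timp3, which is bound in the matrix, had 3 probes with ranges of 0.29 to 0.40, none called (adjusted p = 0.184 to 0.324). Timp1 and Timp4 ranged over 0.20 and 0.38 (adjusted p = 0.429 and 0.586).

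**Figure D3:**
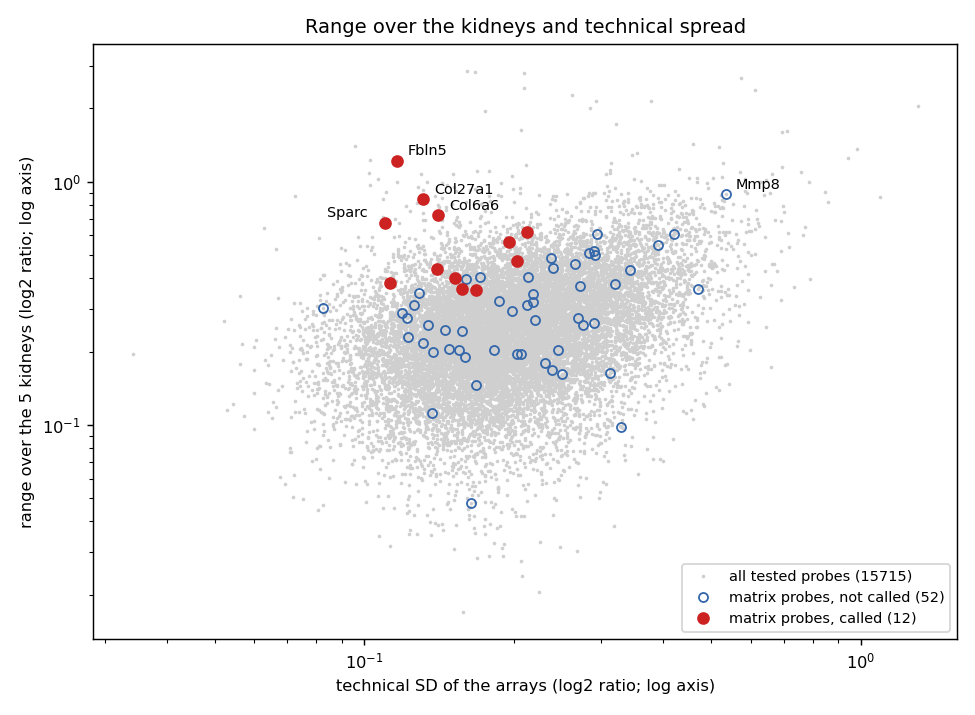
Range over the 5 kidneys against the technical SD of the arrays, both in log2 units on log axes, for all 15715 tested probes (grey), the 52 matrix probes that were not called (open) and the 12 that were (filled). Fbln5 has a range of 1.22 at a technical SD of 0.116, while Mmp8 has 0.89 at 0.536.

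Compared singly with W5, the matrix probes were called 19 times over the 4 mice, each time on the positive side. The calls of Fbln5 are on that side by definition, because Fbln5 sets it. In W4 there were 9 (14.1%), where 2.01% of all probes were called and 1.21% on the positive side. The 5 of W2 (7.81%) stood against 2.34% and 1.11%, the 4 of W1 (6.25%) against 0.795% and 0.541%, and in W3 Fbln5 alone was called (1.56%), against 0.592% and 0.325%. The 9 of W4 fell to 2 without W4.1, to 5 without W4.2 and to 4 without W4.4 or the dye term. With array weights W1 had 11 calls and W4 had 3, and with all arrays scaled to one median absolute deviation these were 9 and 3, so the order of these mice changed with the scale or weight of the arrays. Calls of W4 against W5 included all 3 Sparc probes, Thbs2, Col6a3, Col14a1, Col27a1, Timp2 and Fbln5. Those of W2 were Fbln5, Sparc, Fn1, Col6a3 and Col1a2, and those of W1 Fbln5, Sparc, Col27a1 and Col6a6. Every call of W4 but that of Fbln5 was lost in at least 1 setting, those of Timp2 and Thbs2 in 20 of 28 and 18 of 27. The call of Fn1 in W2 was lost without W2.1 or W2.4, and that of Col6a6 in W1 without W1.3 or W1.4.

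Among W1 to W4 alone, where W5 cancels, 4 of the 64 matrix probes were called by limma (6.25%), against 0.7% of all probes: Fbln5, Col27a1, Col6a6 and Sparc probe 5136. The count fell to 2 without mouse W1, 1 without mouse W2 and 2 without mouse W3. The 4 genes did not set the same mouse apart. W3 was lowest in Fbln5 and Sparc, W1 highest in Col27a1, and W2 lowest in Col6a6. By pairs, the calls were Col27a1 and Col6a6 between W1 and W2 (3.12% of matrix probes, against 0.185% of all probes), Col27a1 between W1 and W3 (1.56%, against 0.159%), Fbln5 and Sparc between W2 and W3 (3.12%, against 0.299%) and Fbln5 and Sparc between W3 and W4 (3.12%, against 0.28%). With the mice as replicates, W5 differed from its littermates in 2 matrix probes (3.12%, against 0.286%), those of Fbln5 and Sparc given above, and 24 (37.5%) passed at an unadjusted p under 0.05, against 13.4%.

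A group of 13 matrix genes had more than 1 tested probe, which shows how far a value depends on the probe. Both Col8a1 probes and both Col18a1 probes followed each other over the arrays (r = 0.662 over 16 arrays and 0.642 over 15, as descriptions). For Thbs2, Mmp9, Fbn2 and Fn1 the correlation lay between -0.106 and 0.0685. The 3 Sparc probes correlated at 0.354 to 0.565, while 2 of the Col1a2 probes correlated at -0.317. Among the 10 genes with a called probe, 6 had only 1 tested probe, so agreement between probes could not be seen for them. The other 4, Sparc, Fn1, Col1a2 and Timp2, each had at least 1 tested probe that was not called.

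**Figure D4:**
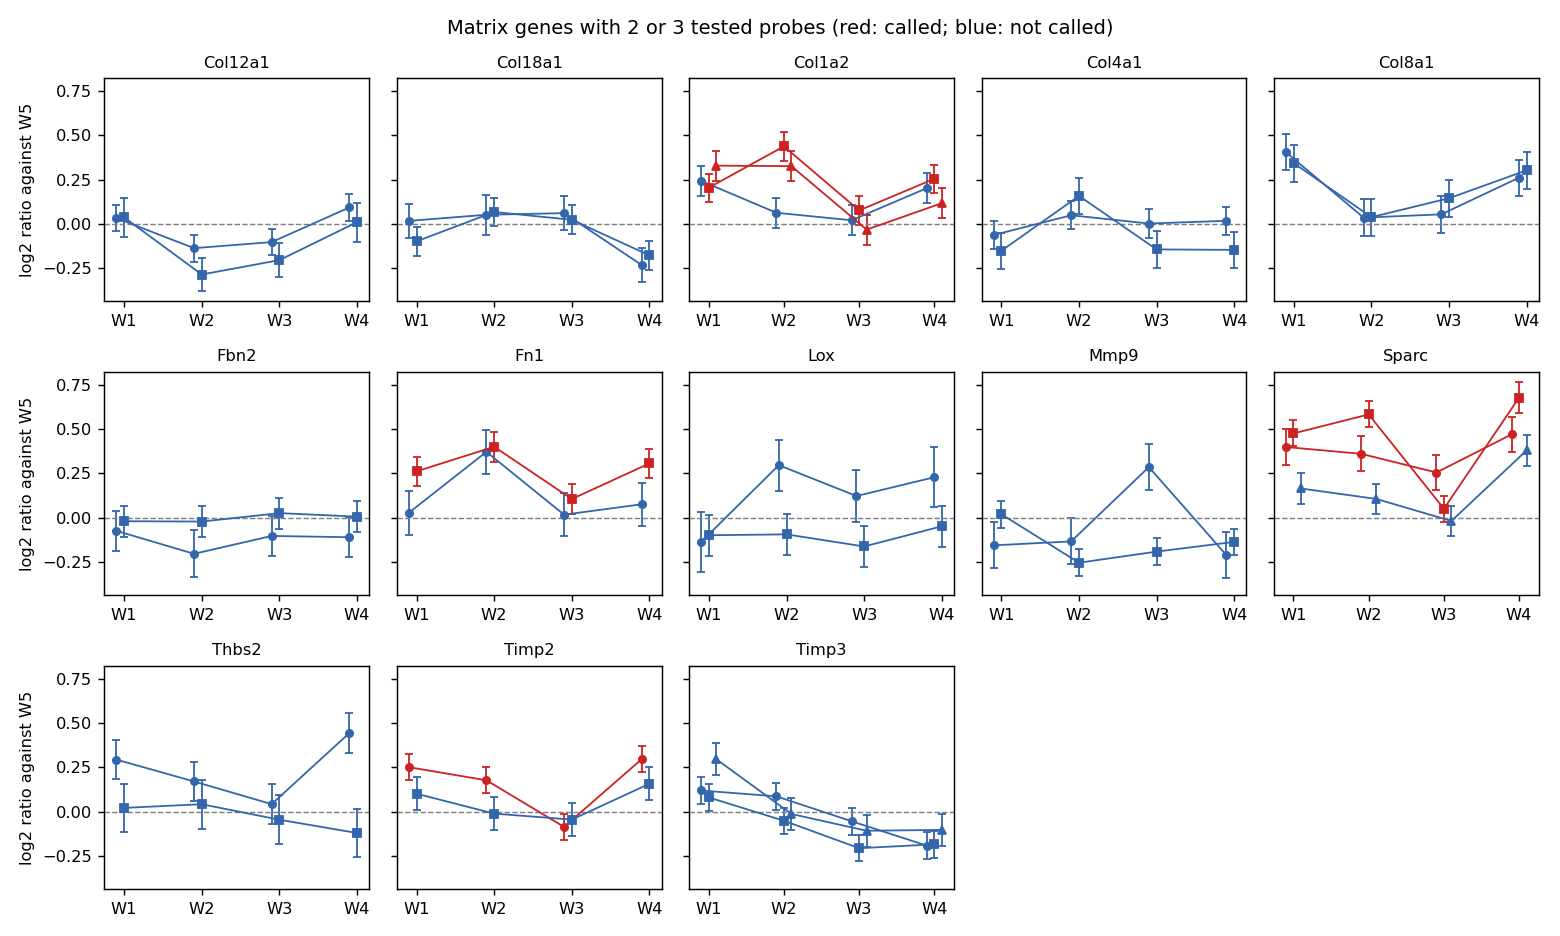
Fitted log2 ratio against W5 with standard errors (vertical axis) in W1 to W4 for the 13 matrix genes with 2 or 3 tested probes, 1 line per probe, red where called. The lines of Col8a1 run together, while those of Thbs2 and Mmp9 part.

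Likeness to Fbln5 was described by the cosine of the 4 fitted values. A gene about equally positive in all 4 mice also scores high, so the cosine does not test the order of the kidneys. Col6a1, nearly level over the mice, reached 0.952. The members most like Fbln5 were Fbln7 (0.994), Fn1 probe 3994 (0.987), Col6a3 (0.972), Sparc probe 5136 (0.972) and Col1a2 probe 19481 (0.967). In each of them W3 lay nearest to W5, and W2 and W4 lay farther from it than W1. All these values rest on 4 mice that share W5. Other probes of these genes gave 0.785 for Fn1, 0.970 and 0.849 for Sparc, and 0.822 and 0.810 for Col1a2. Fbln7 itself was small, at 0.15, 0.23, 0.13 and 0.27, and was not called. Of the 11 other called matrix probes 5 exceeded a cosine of 0.9, as did 70 of the 335 other called named genes. The called named genes most like Fbln5 were Apoe (0.998), Creg1 (0.994), Arid5b (0.991), Gemin2 (0.991) and Aldh7a1 (0.990).

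Related lists of matrix genes differed in how many members were called. The lists were chosen with earlier results of these data known, so their shares are descriptions. Of 25 measured proteoglycans and other matrix glycoproteins, 9 were called (36%), against 4.2% of named genes. On the positive side in all 4 mice were Prelp and Dcn, small leucine-rich proteoglycans that bind collagen, Mgp, an inhibitor of calcification, and Emilin1, a glycoprotein of elastic fibres. Prelp lay at 0.16, 0.69, 0.17 and 0.46, Dcn at 0.01, 0.44, 0.15 and 0.47, and Mgp at 0.32, 0.29, 0.07 and 0.51 (limma adjusted p = 0.00505, 0.0246 and 0.000575). Of the 2 tested Prelp probes, 1 was called. Egfl7 and Mmrn2 lay on both sides, and the basement membrane proteins Tinagl1 and Npnt were negative in all 4 mice. Ecm1 lay at -0.003 in W1 (SE 0.081) and was positive in the other mice. Prelp and Dcn were larger in W2 and W4 than in W1 and W3, while Mgp had W1 beside W2.

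Among genes that make or bind collagen, the called shares, 8.33% and 5%, were near the 4.2% of all named genes. Of 12 collagen processing genes, limma called P4ha1, a prolyl 4-hydroxylase subunit, at -0.18, -0.28, 0.01 and -0.29 (adjusted p = 0.0164), opposite in side to the called collagens in W1 and W4. Of 20 matrix receptors only Itga1, the alpha chain of a collagen-binding integrin, was called, at 0.02, 0.36, 0.05 and 0.19 (0.0478). Among 10 genes of TGF-beta and matricellular regulation, Ccn2 and Ccn1, secreted proteins of the CCN family, were called (20%). Ccn2 gave -0.05, 0.77, 0.14 and 0.68 (1.22e-05), while Ccn1 was largest in W3 at 0.40. Of 15 other matrix proteases 2 were called: Ctsk, the collagen-degrading cathepsin K, at 0.44, 0.15, -0.03 and 0.75 (0.0111), and Mep1b, a brush border metalloprotease, negative in all 4 mice.

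**Figure D5:**
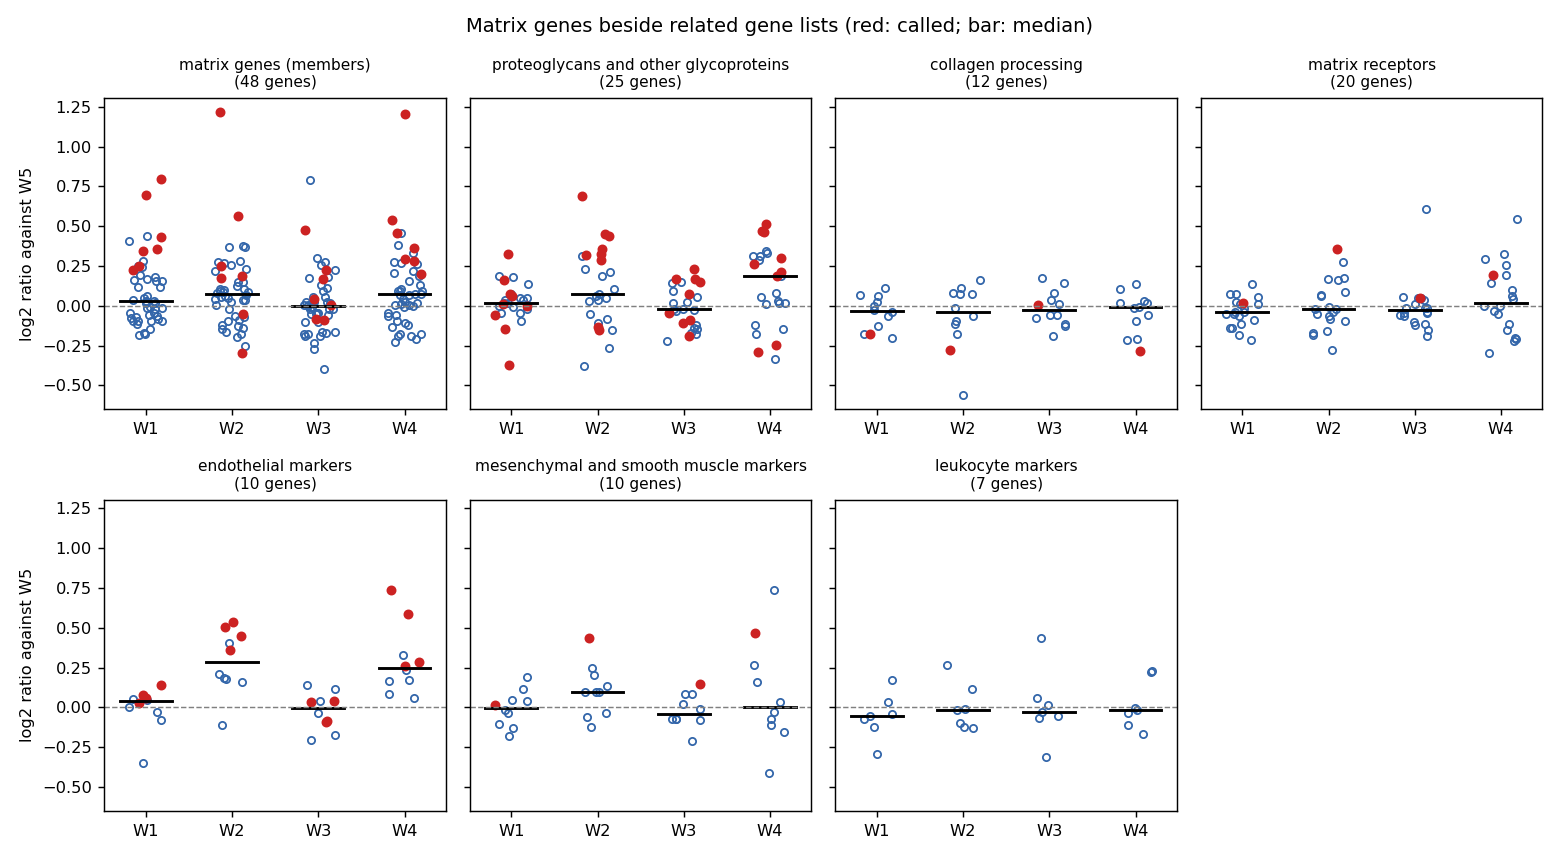
Fitted log2 ratio against W5 (vertical axis) in W1 to W4 for the 48 matrix genes, 1 probe each, and 6 related lists; points are genes, filled where called, and bars are medians. The endothelial medians of W2 and W4, 0.28 and 0.25, are the highest of that panel.

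Markers of several cell types also differed between the kidneys, and their counts stand beside the 4.2% of all named genes called. These lists too were chosen with earlier results of the data known, so the shares are descriptions. Of 10 endothelial markers 4 were called (40%), Esm1, Emcn, Egfl7 and Ehd3, and the list's median was 0.04, 0.28, 0.00 and 0.25 in W1 to W4, with single genes from -0.35 to 0.74. Ehd3 and Flt1 each had 1 of 2 tested probes called, and the probe that stands for Flt1 was not called. W2 and W4 stood out in the endothelial medians and in Fbln5, Col6a3, Prelp and Dcn, but not in all called matrix genes. Over the 12 called matrix probes W1, W2 and W4 were each farthest from W5 in 4. W1 was farthest in Col27a1 and Col6a6, where W2 lay at -0.05 and -0.30. Of 10 mesenchymal and smooth muscle markers limma called only Dcn, with medians of 0.00, 0.10, -0.04 and 0.00, and 4 passed at an unadjusted p under 0.05. Leukocyte markers had 0 of 7 called by limma and 3 at an unadjusted p under 0.05, with medians from -0.05 to -0.01. Adipocyte markers had 4 of 5 called (80%), with medians of -0.08, -0.36, -0.35 and -0.31, on the side opposite to the called matrix genes. Podocyte markers had 2 of 4 called, proximal tubule markers 3 of 7, markers of the later segments 3 of 5 and red blood cell markers 0 of 2 (0 also at an unadjusted p under 0.05). The part of these cell types in the matrix values was not tested.

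The remaining 11 matrix genes had too few values to be tested, and their ratios are given as ranges. Col5a2 had 8 values from -0.19 to 2.09, and Col7a1, the anchoring fibril collagen, 12 from -0.43 to 1.00. Col5a3 had 14 values from -0.63 to 0.43 and Mmp14, a membrane-bound metalloproteinase, 10 from -0.50 to 0.80. Values of Col9a2, Col9a3, Col11a2, Col23a1 and Col26a1 covered 8 to 11 arrays with medians between -0.09 and 0.23. Another 8 probes of genes with a tested probe were left out for the same reason.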

How the data were processed

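The authors deposited 1 table of log2 ratios per probe and array. Per the labels' protocols, slides were scanned with GenePix instruments, and background-subtracted mean intensities were scaled so that the median ratio of an array was 1. The log base was checked on the values: up to 4.90% of an array's values fitted log2 of a quotient of 2 small whole numbers (none above 12), and at most 0.0285% fitted a natural log. The sources used here give neither the dye per channel nor the filter that emptied some cells. The number of hybridisations and animals limits the precision.

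The sign was turned on the 8 arrays with W5 in channel 1. Probes with values on at least 3 of 4 arrays of each mouse were fitted with limma 3.58.1 (R 4.3.3), with 4 mouse coefficients and a dye term, and tested on simulated data. Benjamini-Hochberg adjustment ran over all 15715 probes within a comparison, and probes were called under an adjusted p of 0.05. For W5 against its littermates, arrays were averaged per mouse. All tests were two-sided. Genes were named through the platform annotation, and the probe with values on most arrays, then the first identifier, stands for a gene. The members and gene lists were chosen with earlier results of these data known. Named with full values are the called members, the widest of each family, the basement membrane chains, near misses (adjusted p of 0.05 to 0.1), the genes most like Fbln5 and the called genes of the lists. Alternatives varied the dye term, arrays, mice, weights, scale, filter, probes, block and prior.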

Additional observations from a re-analysis of the deposited data

Results flagged for a closer look

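In 4 probes a single array stood apart from the other 3 of the same mouse. Sparc probe 5136 read 0.685 on W1.4, against 0.396 to 0.417 on the other arrays of W1. Col3a1 read 0.472 on W2.3, against 0.166 to 0.184. Col1a2 probe 19568 read 0.475 on W2.4, against 0.269 to 0.291. Thbs2 probe 20164 read 0.576 on W1.4, against 0.176 to 0.233, and 0.474 on W2.4, against 0.063 to 0.0768. These are 5 of 69 groups of 4 arrays examined, and chance alone marks about 5% of such groups.

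The effect against W5 differed between mice in 4 probes by limma's F test among W1 to W4. The adjusted p was 0.000872 for Fbln5 (range among the 4 mice 0.74), 0.00214 for Col27a1 (0.85), 0.0129 for Col6a6 (0.73) and 0.0215 for Sparc probe 5136 (0.63).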

How the results depend on the processing

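The tests were repeated with other settings, and no value of a named probe changed its side of W5 while called. Over 3426 comparisons of a named value with an alternative, 3231 stayed on the same side of the threshold, 139 lost a call, 56 gained one and 0 reversed. The 12 calls of the 5-kidney test fell to 7 without mouse W1 and lay between 9 and 13 with 1 array left out. The 4 calls among W1 to W4 became 2 without mouse W1, 1 without mouse W2, 2 without mouse W3 and 2 with values required on all 16 arrays, and 3 to 4 with 1 array left out. Against W5, the 4 calls of W1 became 11 with array weights and 9 with a common median absolute deviation (3 to 5 with 1 array left out). The 5 of W2 became 3 with 1 probe per gene (4 to 6), and the 1 of W3 became 2 with array weights (1 with any 1 array left out). The 9 of W4 became 4 without the dye term, 5 without mouse W1, 3 with array weights, 3 with a common median absolute deviation and 4 without the 2 arrays with fewest values, a setting chosen after seeing the data (2 to 9 with 1 array left out). The 1 call between W1 and W3 became 2 with array weights. For W5 against its littermates, the 2 calls became 1 without mouse W1, 0 without mouse W2, 1 without mouse W4, 0 with a spread added for W5 and 10 when each of the 16 arrays entered with mouse as a random block (1 to 2 with 1 array left out). That block had a fitted correlation of 0.0436, so the 10 treats repeat hybridisations nearly as independent. The causes of these moves were not tested.

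Whether the replicate numbers pair arrays of different mice is not settled by the residuals. Residuals of same-numbered arrays correlated between -0.253 and 0.135. Those of arrays with different numbers, in other mice and the same orientation, correlated between -0.284 and 0.00858. With the replicate number as a block, the 5-kidney count was 12 and the count among W1 to W4 was 4, but Col3a1 lost its 5-kidney call (limma adjusted p = 0.0616) and Thbs2 probe 20164 gained one (0.0376). The main fit used neither a robust prior nor a trend. A robust prior was run as an alternative setting, without a trend, because the data used here hold no intensities. Of 189 values of the called matrix probes, 3.17% were log2 of a quotient of small whole numbers, against 4.29% over all tested matrix probes. The signal over background is otherwise not known.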
